A study of Mus musculus with 18 samples.

Results

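Chemokine mRNA was described in mouse bone marrow-derived macrophages (BMDM) across 6 groups of 3 RNA-seq libraries, 18 in all. Members were the protein coding genes of the GRCm38 annotation named as a chemokine ligand (Ccl, Cxcl, *Cx3cl1*, *Pf4*, *Ppbp*) or as a chemokine receptor (Ccr, Cxcr, Xcr, Ackr, *Cx3cr1*, *Ccrl2*). They were chosen by symbol, a rule that uses no measured value but was set with earlier results of these data known. This gave 62 genes among 55385 listed, 38 ligands and 24 receptors. A gene counted as expressed where 2 or more of the 18 libraries held 10 counts or more, which 25 ligands and 12 receptors did, 37 of the 14979 expressed genes. BMDM were grown for 7 days from the marrow of 12-week-old female C57BL/6J mice with L-929 cell supernatant as the source of growth factor. They were given vehicle (Veh, 0.1% DMSO), 250 µM hemicholinium-3 (HC3, which blocks choline uptake) or 5 µM RSM-932a (RSM, which inhibits choline kinase) for 24 h, and then spent another 24 h naïve (M[0]) or with 20 ng/mL interleukin-4 (M[IL-4]). The labels name 3 individual mice as the source, and whether libraries of the same number share a mouse is not stated. The doses of HC3 and RSM differ, and within a polarization both inhibitors are compared with the same Veh libraries, so their results are given side by side and are not independent.

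Chemokines are small secreted proteins that direct the movement of leukocytes, and they are grouped as CC, CXC, CX3C and XC by the spacing of cysteines near their amino terminus. Their receptors are 7-transmembrane proteins that mostly signal through Gi proteins, while atypical receptors bind ligands without this signal and remove them. Macrophages both release chemokines that recruit monocytes, neutrophils and lymphocytes and use receptors such as *Ccr2* and *Cx3cr1* for their own entry and survival in tissue, and IL-4 is known to raise *Ccl17*, *Ccl22* and *Ccl24*, ligands of type 2 immunity.

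Levels are given in CPM, counts per 1000000 of a library after scaling by edgeR's TMM factors. Libraries held 17457796 to 19522255 counts, so 3 counts in a library correspond to 0.153 to 0.176 CPM. A gene was called where the FDR, the Benjamini-Hochberg adjusted p of edgeR's quasi-likelihood test over all 14979 genes, was under 0.05 and the log2 fold change reached 1 or -1, and "rose" and "fell" are used only of called genes. All 8 macrophage markers were present. Their summed level was 20300 to 21400 CPM in Veh M[0], 8710 to 9800 in HC3 M[0], 15700 to 17200 in RSM M[0], 11800 to 12100 in Veh M[IL-4], 7470 to 8660 in HC3 M[IL-4] and 10600 to 13000 in RSM M[IL-4]. The largest part of each sum was *Lyz2*. Its means were 11600, 5070 and 11700 CPM with Veh, HC3 and RSM in M[0], and 4530, 2870 and 5900 with IL-4. Against Veh, HC3 lowered 6 of the 8 in M[0] and 2 with IL-4, and RSM lowered 3 in M[0], and in bulk RNA fewer cells of a type and less RNA per cell cannot be told apart. The summed collagen and fibroblast markers were 527 to 888 CPM in Veh M[0], 1230 to 1700 in HC3 M[0], 1040 to 1490 in RSM M[0], 285 to 665 in Veh M[IL-4], 563 to 1060 in HC3 M[IL-4] and 540 to 1080 in RSM M[IL-4]. Most of this sum was *Col1a1* and *Col1a2*, and in M[0] *Dcn* was at 8.5 CPM with Veh, 7.91 with HC3 and 2.99 with RSM. The 6 genes listed for dendritic cells summed to 11.8 to 18.7 CPM in HC3 M[0] and 1.49 to 6.97 elsewhere. In HC3 M[0] the sum was nearly all *Kit* (a mean of 14) and is a level of that gene. The means of *Zbtb46*, *Flt3* and *Siglech* there were 0.811, 0.138 and 0.0861 CPM, and *Clec9a* and *Cd209a* were at 0. The 5 endothelial markers summed to 69.6 to 84.4 CPM in RSM M[0] and 6.66 to 49.2 elsewhere, nearly all of it *Kdr*, and *Cdh5*, *Tie1*, *Tek* and *Emcn* had means of at most 0.526 in every group. Marker sums stayed at or below 2.04 CPM for neutrophils, 2.82 for platelets, 0.995 for B cells and 2.1 for eosinophils, basophils and mast cells. The part of any of these in the results below was not tested.

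Both inhibitors and IL-4 changed many of the expressed chemokine genes. HC3 lowered 13 of the 37 expressed members in M[0], where 6.11% of all tested genes were called lower and 5.93% higher, while *Ccr1* (log2 fold change 0.54, FDR 0.0175) and *Cxcl2* (0.46, FDR 0.0355) were above Veh short of the fold threshold. RSM in M[0] raised 6 and lowered 12 (5.05% and 6.51% of all genes). In M[IL-4], HC3 raised 3 and lowered 13 (4.72% and 5.53%), and RSM raised 9 and lowered 13 (5.05% and 6.00%). IL-4 raised 10 and lowered 10 with Veh (2.83% and 3.83% of all genes), raised 5 and lowered 6 with HC3 (1.82% and 2.14%, 3.97% in all), and raised 5 and lowered 6 with RSM (2.45% and 1.81%). Of the 37, *Ccl17*, *Ccl24* and *Cxcr2* passed the count filter only through Veh M[IL-4] and *Cxcl10* only through Veh M[0], so their differences from that group were favoured by the filter and are given below without a test. Without these 4, HC3 lowered 12 in M[0] and 11 in M[IL-4], RSM lowered 10 in M[IL-4], and IL-4 raised 7 and lowered 9 with Veh and raised 4 with HC3, with the other numbers of these 7 comparisons as above. Some members still in these numbers were favoured by the filter too. *Ccr1l1* reached 10 counts only in Veh libraries, *Ackr3* and *Cxcl3* only in inhibitor libraries, and *Ccl12* and *Ccl22* only in M[IL-4] libraries. Tests of *Ccr1l1*, *Ackr3* and *Cxcl3* against Veh, and of *Ccl12* and *Ccl22* with IL-4, are therefore not independent of the filter. The median log2 fold change of the members in M[0] was -0.69 for HC3 and -0.47 for RSM, and with IL-4 it was -0.54 and -0.22, while that of all genes lay within 0.03 of 0 in each.

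**Figure D1:**
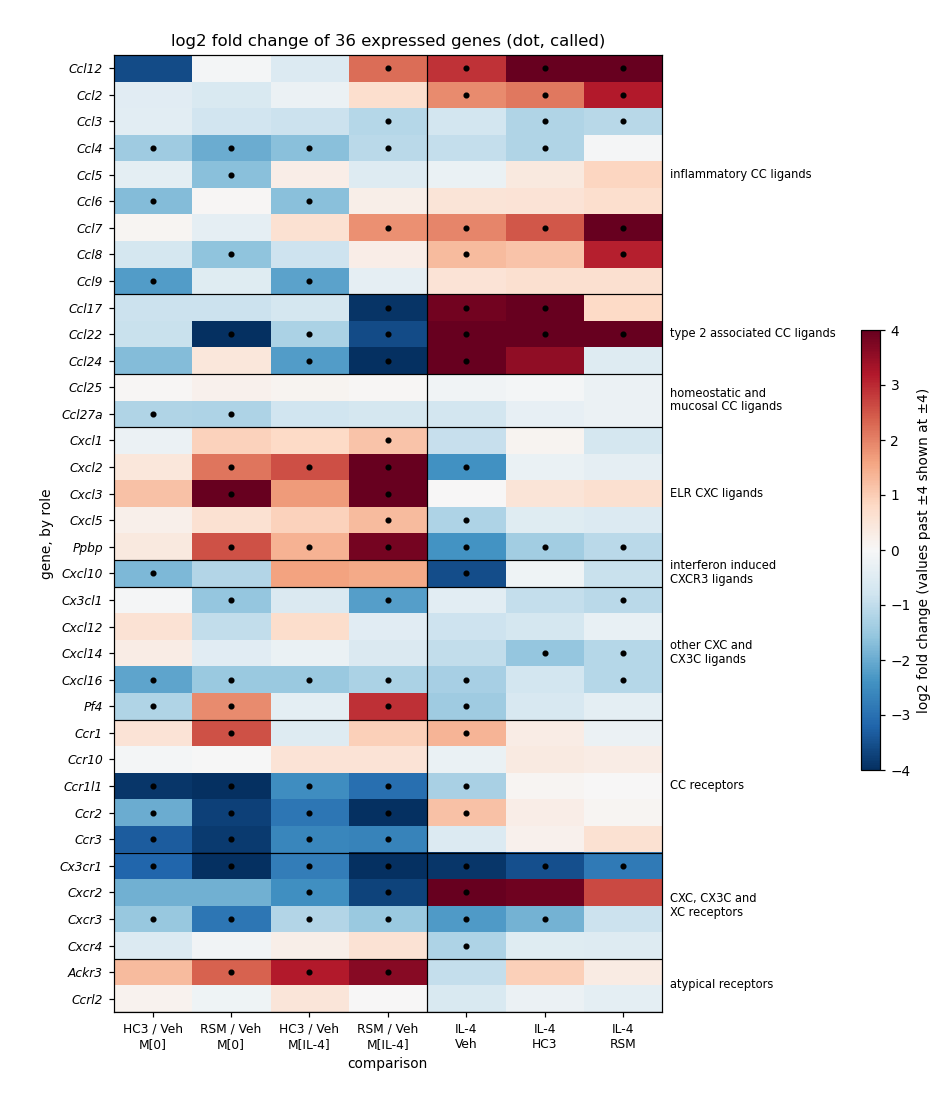
Log2 fold change of 36 expressed genes (vertical axis, grouped by role) in 7 comparisons (horizontal axis), 4 of an inhibitor with Veh and 3 of IL-4 with none, with red for higher, blue for lower and a dot for a called gene. Ccr2, Ccr3 and Cx3cr1 are blue in all 4 inhibitor columns, Cxcl2, Cxcl3, Ppbp and Pf4 are red with RSM, and fitted values of genes with 0 counts in a group (Ccl22 in RSM M[0], Ccl12 in HC3 M[0]) are not bounds. Dots of Ccl17, Ccl24, Cxcr2 and Cxcl10 rest on genes that passed the count filter through 1 group.

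Per kilobase of exon, *Ccl9* led the ligands of Veh M[0] at 191 ± 19.9 CPM per kb (SD, n = 3), followed by *Pf4* (101 ± 10.3), *Ccl6* (72.5 ± 10.5), *Cxcl16* (71.2 ± 1.22), *Ccl3* (55 ± 8.19) and *Ccl4* (39.6 ± 0.707). *Ccl6* and *Cxcl16* overlapped between libraries and the other neighbours in this order did not. In RSM M[IL-4] the order was *Pf4* (283 ± 64.6 CPM per kb), *Ccl7* (283 ± 60.4), *Ccl9* (216 ± 18.2) and *Ccl6* (121 ± 11.9), with the levels of the leading 3 overlapping. Among receptors of Veh M[0], *Cxcr4* led at 125 ± 20.7 CPM per kb, with *Ccr3* (15.4 ± 1.69) below it and then an overlapping run of *Cx3cr1* (6.83 ± 0.252), *Cxcr3* (5.89 ± 0.828), *Ccr1* (4.97 ± 0.957) and *Ccrl2* (4.17 ± 1.01). The summed level of the 25 expressed ligands in M[0] was 1210 ± 55.6 CPM with Veh, 457 ± 16.6 with HC3 and 1070 ± 78.7 with RSM, and with IL-4 it was 1360 ± 199, 548 ± 10.9 and 1520 ± 112 in the same order (SD, n = 3). The sum of the 12 receptors was 573 ± 46.7, 276 ± 37.2 and 462 ± 32.6 CPM in M[0] and, with IL-4, 420 ± 59.3, 256 ± 39 and 413 ± 55.

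The receptors *Ccr2*, *Cx3cr1*, *Ccr3* and *Cxcr3* fell with both inhibitors, while *Ccr1* rose with RSM in M[0] and *Cxcr4* was called with neither. *Ccr2*, the receptor of *Ccl2* and *Ccl7* that draws monocytes into tissue, was at 11.6, 12 and 9.41 CPM in Veh M[0], at 2.35, 3.53 and 2.53 in HC3 M[0] and at 1.07, 0.575 and 0.821 in RSM M[0]. Its M[IL-4] levels were 22.3, 30.8 and 22.1 CPM with Veh, 3.06, 3.6 and 3.5 with HC3 and 0.56, 0.7 and 1.33 with RSM. Every inhibitor library lay below every Veh library of its polarization. The fall with HC3 was 3.91-fold in M[0] (log2 fold change -1.97, SE 0.219, FDR 6.48e-07) and 7.38-fold in M[IL-4] (-2.88, SE 0.214, FDR 4.25e-09). With RSM it was 13.3-fold (-3.74, SE 0.26, FDR 1.27e-09) and 28.9-fold (-4.85, SE 0.255, FDR 3.62e-11). IL-4 raised *Ccr2* with Veh (log2 fold change 1.18, SE 0.193, FDR 0.000108), while the values with HC3 (0.27, 95% interval -0.23 to 0.77, FDR 0.527) and RSM (0.07, -0.65 to 0.79, FDR 0.934) were not called. HC3 left higher *Ccr2* than RSM did in M[0] (log2 difference 1.77, SE 0.288, FDR 0.000299) and in M[IL-4] (1.97, SE 0.282, FDR 8.02e-05).

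*Cx3cr1*, the receptor of the membrane-bound chemokine *Cx3cl1* and a mark of resident macrophages, was at 31.8, 29.5 and 30.9 CPM in Veh M[0], at 4.17, 3.02 and 3.1 in HC3 M[0] and at 0.32, 1.05 and 0.616 in RSM M[0]. With IL-4 it was at 3.28, 1.51 and 1.4 CPM with Veh, at 0, 0.111 and 0.767 with HC3 and at 0.0509, 0 and 0.213 with RSM. No 2 groups of a polarization overlapped except HC3 and RSM in M[IL-4]. Its fall in M[0] was 8.95-fold with HC3 (log2 fold change -3.16, SE 0.356, FDR 7.31e-07) and 46-fold with RSM (-5.52, SE 0.437, FDR 7.39e-09). The M[IL-4] log2 fold change was -2.78 with HC3 (SE 0.601, FDR 0.00109) and -4.46 with RSM (SE 0.75, FDR 9.34e-05), and without replicate 3 of the treated group these were -5.05 and -5.98. IL-4 lowered *Cx3cr1* 14.8-fold with Veh (-3.88, SE 0.379, FDR 2.39e-07) and by -3.51 on the log2 scale with HC3 (SE 0.561, FDR 0.000197), or -5.78 without HC3 M[IL-4] replicate 3. The IL-4 call with RSM (-2.82, FDR 0.0442) was lost without RSM M[0] replicate 2 (-2.34) or 3 (-2.88) and without RSM M[IL-4] replicate 1 (-2.56) or 2 (-2.29), and was -4.34 without RSM M[IL-4] replicate 3. HC3 left 5.14-fold more *Cx3cr1* than RSM in M[0] (2.36, SE 0.477, FDR 0.00214), and in M[IL-4] the difference was 1.68 (95% interval -0.62 to 3.98, FDR 0.382).

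*Ccr3*, the eotaxin receptor best known from eosinophils, was at 56.8, 46.8 and 47.8 CPM in Veh M[0], at 5.72, 4.56 and 4.63 in HC3 M[0] and at 4.48, 2.25 and 4 in RSM M[0]. After IL-4 it was at 26.5, 40.8 and 37 CPM with Veh, at 6.17, 5.75 and 4.98 with HC3 and at 6.16, 4.2 and 6.01 with RSM. Both inhibitors lowered it in both polarizations without overlap. The fall was 10.1-fold with HC3 in M[0] (log2 fold change -3.34, SE 0.201, FDR 1.45e-10) and 14.1-fold with RSM (-3.82, SE 0.209, FDR 4.6e-11), and in M[IL-4] it was 6.16-fold (-2.62, SE 0.198, FDR 5.12e-09) and 6.35-fold (-2.67, SE 0.198, FDR 3.7e-09). HC3 and RSM were not told apart, with a log2 difference of 0.47 in M[0] (95% interval -0.01 to 0.96, FDR 0.201) and 0.04 in M[IL-4] (-0.41 to 0.50, FDR 0.939). Eosinophil, basophil and mast cell markers summed to 0.498 to 0.822 CPM in Veh M[0], where *Ccr3* was highest, and to 1.34 to 2.1 CPM in HC3 M[0]. The neighbouring *Ccr1l1*, a receptor-like gene beside *Ccr1*, was called in the same direction in each of the 4 comparisons, from a mean of 1.89 ± 0.453 CPM in Veh M[0] to 0.123 ± 0.0808 with HC3 and 0.0862 ± 0.107 with RSM, and from 0.768 ± 0.146 in Veh M[IL-4] to 0.13 ± 0.0874 and 0.0876 ± 0.0299 (SD, n = 3). Only Veh libraries held 10 counts of *Ccr1l1*, so the filter favoured its falls with the inhibitors. IL-4 lowered it with Veh (-1.30, FDR 0.0212), a call lost without Veh M[0] replicate 1 (-1.28) or 3 (-1.12) and without Veh M[IL-4] replicate 1 (-1.18) or 3 (-1.26). Its log2 fold change with HC3 in M[0] was -3.88, or -4.47 without HC3 M[0] replicate 3, and with RSM -4.34, or -5.85 without RSM M[0] replicate 3. In M[IL-4] it was -2.50 with HC3, or -3.11 without HC3 M[IL-4] replicate 1, and -3.03 with RSM.

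*Cxcr3*, the receptor of the interferon-induced ligands *Cxcl9* and *Cxcl10*, was at 10.2, 11.6 and 8.76 CPM in Veh M[0], at 2.73, 4.25 and 3.58 in HC3 M[0] and at 1.12, 1.78 and 1.18 in RSM M[0]. With IL-4 it was at 1.88, 1.8 and 2.69 CPM with Veh, at 1.13, 0.996 and 0.712 with HC3 and at 0.764, 0.538 and 0.958 with RSM. All Veh libraries were above the treated ones of their polarization. It fell 2.89-fold with HC3 (log2 fold change -1.53, SE 0.223, FDR 1.75e-05) and 7.46-fold with RSM in M[0] (-2.90, SE 0.247, FDR 1.96e-08), and 2.8-fold with RSM in M[IL-4] (-1.49, SE 0.291, FDR 0.000422). The fall with HC3 in M[IL-4] (-1.16, SE 0.283, FDR 0.00294) was short of the fold threshold without Veh M[IL-4] replicate 3 (-0.96) or HC3 M[IL-4] replicate 3 (-0.99). IL-4 lowered *Cxcr3* 4.78-fold with Veh (-2.26, SE 0.235, FDR 5.6e-07) and 3.71-fold with HC3 (-1.89, SE 0.27, FDR 5.87e-05), and the value with RSM was -0.85 (FDR 0.0704). Of 7 T and NK cell markers, *Cd3d* and *Cd3g* were at 0 in every library, and *Cd3e*, *Cd8a* and *Ncr1* had means of at most 0.0956 CPM in every group. The list summed to 3.44 to 5.99 CPM in Veh M[0], 1.61 to 2 in HC3 M[0], 0.565 to 0.994 in RSM M[0] and at most 1.27 with IL-4. Most of the sum in Veh M[0] was *Cd4*, with means of 4.87, 1.64 and 0.489 CPM with Veh, HC3 and RSM in M[0], while those of *Klrb1c* were 0.147, 0.191 and 0.244.

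*Ccr1*, which binds *Ccl3*, *Ccl5*, *Ccl6* and *Ccl9*, was highest with RSM. It was at 13.3, 17.1 and 11.8 CPM in Veh M[0], at 21.5, 24.3 and 15.4 in HC3 M[0] and at 87.9, 80.7 and 76.3 in RSM M[0]. With IL-4 it was at 29.2, 42.1 and 37.8 CPM with Veh, at 23.9, 29.1 and 22.4 with HC3 and at 74.9, 60.2 and 74.8 with RSM. The RSM libraries lay above all others of their polarization. *Ccr1* rose 5.81-fold with RSM in M[0] (log2 fold change 2.54, SE 0.17, FDR 7.21e-10), and the value in M[IL-4] was 0.94 (SE 0.157, FDR 8.51e-05), just short of the fold threshold and past it without Veh M[IL-4] replicate 2 (1.06) or RSM M[IL-4] replicate 2 (1.04). With HC3 the values were 0.54 in M[0] (FDR 0.0175), where it overlapped Veh, and -0.53 in M[IL-4] (FDR 0.0141), where it lay below Veh, both short of the fold threshold. IL-4 raised it 2.59-fold with Veh (1.37, SE 0.171, FDR 5.15e-06). HC3 lay 4-fold below RSM in M[0] (SE 0.163 on the log2 scale, FDR 9.75e-08) and 2.78-fold below it in M[IL-4] (-1.48, SE 0.161, FDR 3.34e-06).

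*Cxcr4*, the receptor of *Cxcl12* and the receptor mRNA with the highest level per kb, was at 208, 269 and 201 CPM in Veh M[0], at 136, 192 and 136 in HC3 M[0] and at 180, 243 and 187 in RSM M[0]. The levels in M[IL-4] were 91.5, 106 and 87.1 CPM with Veh, 101, 133 and 96.4 with HC3 and 113, 186 and 126 with RSM. It fell 2.38-fold with IL-4 in Veh cells (log2 fold change -1.25, SE 0.186, FDR 4.03e-05), and no inhibitor comparison called it, with log2 fold changes from -0.54 (HC3, M[0], FDR 0.0213) to 0.58 (RSM, M[IL-4], FDR 0.0179). *Ackr3*, the atypical receptor that scavenges *Cxcl12*, was near the count floor with Veh and rose with RSM in M[0] from 0.186 ± 0.127 to 0.981 ± 0.54 CPM (2.35, SE 0.666, FDR 0.00813). With IL-4 present it rose from 0.0919 ± 0.0851 CPM to 0.885 ± 0.565 with HC3 (3.16, SE 0.766, FDR 0.00279) and to 1.24 ± 0.518 with RSM (3.65, SE 0.734, FDR 0.000563; SD, n = 3). Only inhibitor libraries held 10 counts of *Ackr3*, so the filter favoured these rises. The M[0] call was lost without RSM M[0] replicate 1 (1.86, FDR 0.0533) and was 3.05 without Veh M[0] replicate 1. The M[IL-4] values were 3.84 and 4.32 without Veh M[IL-4] replicate 3, and that of HC3 was 2.51 without HC3 M[IL-4] replicate 3. *Cxcr2*, the receptor of neutrophil-attracting CXC ligands, passed the count filter only through Veh M[IL-4], where 29 counts stood against 1 in Veh M[0] and 2 in RSM M[IL-4]. Its mean was 0.541 ± 0.131 CPM in Veh M[IL-4] and 0.0925 ± 0.0637 in HC3 M[IL-4] (SD, n = 3). Neutrophil markers, 3 of 9 at 0 everywhere, summed to 0.348 to 0.484 CPM in Veh M[IL-4]. *Ccrl2*, an atypical receptor that binds chemerin (7.16 ± 1.27 to 11.8 ± 1.66 CPM), and *Ccr10*, the receptor of Ccl27 and *Ccl28* (0.598 ± 0.123 to 0.877 ± 0.361 CPM), were called in none of the 11 comparisons.

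**Figure D2:**
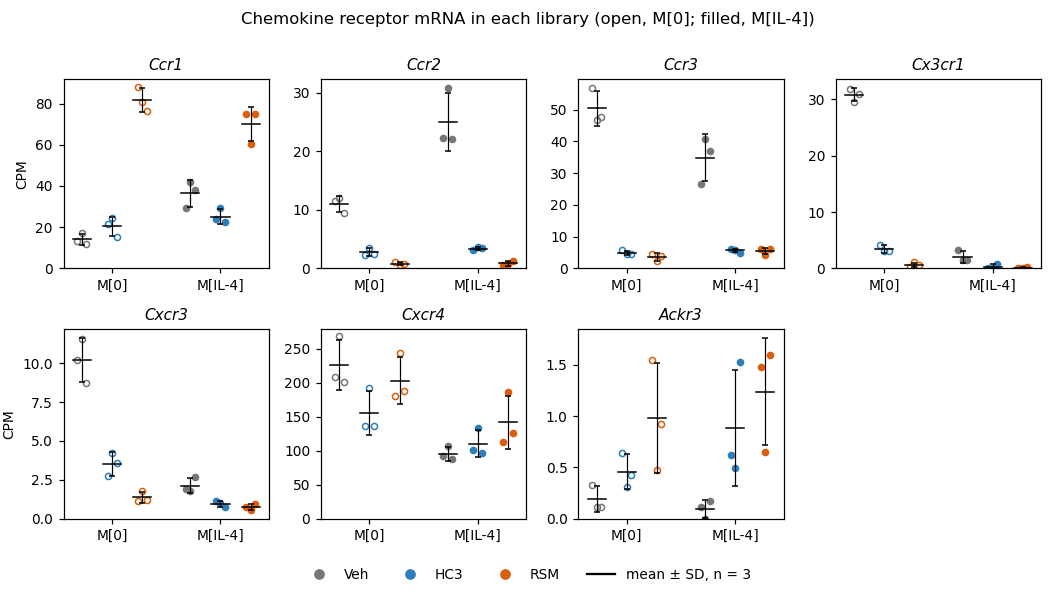
CPM (vertical axis, from 0) of 7 receptors in each library of the 6 groups (horizontal axis, Veh, HC3 and RSM in M[0], open, and in M[IL-4], filled), with the mean and SD of 3 libraries. Ccr2, Ccr3, Cx3cr1 and Cxcr3 are highest with Veh, and Ccr1 is highest with RSM.

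The CXC ligands that attract neutrophils through *Cxcr2*, *Ppbp* among them, lie with *Pf4* in 1 group of 7 genes on chromosome 5, from base 90759360 to 90905938 of GRCm38. Their order is *Cxcl5*, *Ppbp*, *Pf4*, *Cxcl3*, *Cxcl15*, *Cxcl1* and *Cxcl2*, of which 6 were expressed. All 6 rose with RSM in M[IL-4], and promoter sequence is printed for the 5 of them with a RefSeq window, that is without *Cxcl5*, because only some hold the letters of a κB motif. The windows are on GRCm38.p6, plus strand, 5′ to 3′, each ending before the earlier of the RefSeq and the annotated start, and capitals mark GGG, any 2 bases and TTTCC, on either strand, a κB motif of the kind NF-κB recognises.
Cxcl1 (chr5:90891115-90891240): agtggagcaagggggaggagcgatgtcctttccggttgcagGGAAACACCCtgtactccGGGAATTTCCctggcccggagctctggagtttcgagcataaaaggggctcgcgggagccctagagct
Cxcl2 (chr5:90903769-90903870): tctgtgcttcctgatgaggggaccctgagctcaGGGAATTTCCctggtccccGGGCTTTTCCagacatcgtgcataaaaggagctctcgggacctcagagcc
Cxcl3 (chr5:90785971-90786100): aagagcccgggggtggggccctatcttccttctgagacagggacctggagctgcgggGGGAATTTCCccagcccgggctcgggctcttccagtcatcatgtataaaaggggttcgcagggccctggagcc
Pf4 (chr5:90772305-90772434): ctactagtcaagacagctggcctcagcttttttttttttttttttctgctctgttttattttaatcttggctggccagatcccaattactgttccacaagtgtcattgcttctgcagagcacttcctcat
Ppbp (chr5:90768388-90768517): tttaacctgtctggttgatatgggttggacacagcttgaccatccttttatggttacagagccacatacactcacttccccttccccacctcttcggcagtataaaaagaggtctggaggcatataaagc
*Cxcl1* and *Cxcl2* hold 2 copies and *Cxcl3* holds 1, starting 89 and 71, 97 and 78, and 73 bases before the RefSeq start. Of 32851 such promoter windows, each reaching 250 bases before the start, 1.41% hold a copy and 0.0244%, 8 windows, hold 2. *Pf4* and *Ppbp* hold none in their full windows, and among the 48 members with a window the other matches are in *Ccl9*, *Ccl20* and *Ccr3*. A match is a description of letters, not of binding.

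*Cxcl2*, which recruits neutrophils, was at 8.68, 9.63 and 7.64 CPM in Veh M[0], at 12.7, 10.2 and 12.8 in HC3 M[0] and at 40.1, 35.2 and 37.8 in RSM M[0]. In M[IL-4] it was at 1.83, 2.09 and 0.952 CPM with Veh, at 10.6, 11.2 and 7.5 with HC3 and at 33.4, 28.8 and 26.3 with RSM. In both polarizations the groups were ordered Veh, HC3 and RSM without overlap. IL-4 lowered *Cxcl2* 5.31-fold with Veh (log2 fold change -2.41, SE 0.218, FDR 8.84e-08), and with HC3 (-0.28, 95% interval -0.64 to 0.07, FDR 0.306) and RSM (-0.35, -0.67 to -0.03, FDR 0.14) it was not called. RSM raised it 4.36-fold in M[0] (2.13, SE 0.166, FDR 6.14e-09) and 18.1-fold in M[IL-4] (4.18, SE 0.205, FDR 1.6e-11). HC3 raised it 6-fold in M[IL-4] (2.59, SE 0.216, FDR 1.87e-08), with 0.46 in M[0] (FDR 0.0355). HC3 was 3.17-fold below RSM in M[0] (-1.66, SE 0.16, FDR 7.44e-07) and 3.02-fold below it in M[IL-4] (-1.60, SE 0.164, FDR 1.61e-06).

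*Cxcl3*, a close relative of *Cxcl2*, was at 0.166, 0.352 and 0 CPM in Veh M[0], at 0.161, 0.717 and 0.263 in HC3 M[0] and at 3.2, 2.2 and 3.13 in RSM M[0]. Its M[IL-4] levels were 0.161, 0.29 and 0.056 CPM with Veh, 0.566, 0.664 and 0.438 with HC3 and 5.35, 3.44 and 4.52 with RSM. Veh levels were at a few counts per library, and RSM libraries lay above all others. Only inhibitor libraries held 10 counts of *Cxcl3*, so the filter favoured its rises. RSM raised it in M[0] (log2 fold change 4.02, SE 0.546, FDR 7.87e-06), 5.01 without Veh M[0] replicate 2 and 3.43 without replicate 3, and in M[IL-4] (4.67, SE 0.531, FDR 9.21e-07), 5.26 without Veh M[IL-4] replicate 2. With HC3 in M[IL-4] the value of 1.69 had FDR 0.0532, and FDR 0.0429 with a replicate block within each polarization, and 2.27 (FDR 0.0388) without Veh M[IL-4] replicate 2. HC3 was below RSM by -2.87 in M[0] (SE 0.469, FDR 0.000308), -3.70 without HC3 M[0] replicate 2, and by -2.98 in M[IL-4] (SE 0.439, FDR 0.000108). *Cxcl2* and *Cxcl3* transcripts share a stretch of 116 bases at 98.3% identity, so reads there may be split between them.

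*Cxcl1* was at 2.43, 1.35 and 1.34 CPM in Veh M[0], at 1.66, 1.59 and 1.16 in HC3 M[0] and at 3.15, 3.4 and 3.18 in RSM M[0]. After IL-4 it was at 0.592, 1.05 and 1.06 CPM with Veh, at 1.3, 1.27 and 2.14 with HC3 and at 2.29, 1.72 and 1.92 with RSM. RSM libraries were above Veh in both states. The rise was called in M[IL-4] (log2 fold change 1.14, SE 0.308, FDR 0.0064), but it was 0.90 without Veh M[IL-4] replicate 1, and in M[0] the value was 0.92 (FDR 0.0115), or 1.26 without Veh M[0] replicate 1. HC3 lay below RSM in M[0] (-1.14, FDR 0.00864), a call lost without HC3 M[0] replicate 3 (FDR 0.0512). *Cxcl5*, also a neutrophil attractant, was at 6.3, 4.93 and 6.08 CPM in Veh M[0], at 6.79, 5.79 and 7.26 in HC3 M[0] and at 14.1, 5.02 and 7.19 in RSM M[0]. The levels in M[IL-4] were 2.64, 1.74 and 3.02 CPM with Veh, 4.08, 4.09 and 5.8 with HC3 and 9.58, 2.26 and 6.17 with RSM. RSM replicates spread widely. The stromal markers *Col1a1*, *Col1a2* and *Col3a1* were lowest in the library numbered 2 of each group. *Cxcl5* was lowest in that library in every group but HC3 M[IL-4], and the part of stromal cells in its values was not tested. The rise with RSM in M[IL-4] (1.28, SE 0.416, FDR 0.0201) was lost without RSM M[IL-4] replicate 1 (0.77, FDR 0.171) or Veh M[IL-4] replicate 2 (1.09, FDR 0.0774), and had FDR 0.0554 in a fit of only these groups. The fall with IL-4 in Veh cells (-1.22, FDR 0.0328) was lost without Veh M[0] replicate 1 (-1.15) or 3 (-1.18) and without Veh M[IL-4] replicate 1 (-1.27) or 2 (-1.03).

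*Pf4* (platelet factor 4), a chemokine of platelets that macrophages also make, was at 64.5, 75.6 and 78.7 CPM in Veh M[0], at 28.4, 29.2 and 38.4 in HC3 M[0] and at 308, 224 and 276 in RSM M[0]. In M[IL-4] it was at 25.1, 24 and 32.5 CPM with Veh, at 20.4, 19.9 and 21.6 with HC3 and at 225, 151 and 237 with RSM. The inhibitors moved it in opposite directions in M[0]. RSM raised *Pf4* 3.69-fold in M[0] (log2 fold change 1.88, SE 0.159, FDR 1.75e-08) and 7.5-fold in M[IL-4] (2.91, SE 0.17, FDR 1.57e-10). HC3 lowered it 2.28-fold in M[0] (-1.19, SE 0.164, FDR 9.1e-06), and the value in M[IL-4] was -0.40 (FDR 0.0786). HC3 lay 8.42-fold below RSM in M[0] (-3.07, SE 0.169, FDR 7.36e-10) and 9.91-fold below it in M[IL-4] (-3.31, SE 0.174, FDR 2.34e-10). IL-4 lowered *Pf4* 2.68-fold with Veh (-1.42, SE 0.166, FDR 2.48e-06).

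*Ppbp* (pro-platelet basic protein) was at 0.774, 0.587 and 0.753 CPM in Veh M[0], at 0.696, 0.973 and 1.1 in HC3 M[0] and at 4.16, 4.03 and 4.26 in RSM M[0]. Its M[IL-4] levels were 0.161, 0.174 and 0.056 CPM with Veh, 0.566, 0.332 and 0.164 with HC3 and 1.83, 1.78 and 2.23 with RSM. RSM libraries were above all others of their polarization. RSM raised it 5.83-fold in M[0] (log2 fold change 2.54, SE 0.289, FDR 8.97e-07) and 14.2-fold in M[IL-4] (3.83, SE 0.4, FDR 3.17e-07). IL-4 lowered it 5.2-fold with Veh (-2.38, SE 0.458, FDR 0.000563) and 2.13-fold with RSM (-1.09, SE 0.255, FDR 0.00531). With HC3 the IL-4 call (-1.38, FDR 0.0146) was lost without HC3 M[0] replicate 3 (-1.23) and without HC3 M[IL-4] replicate 2 (-1.34) or 3 (-1.04). The call of HC3 in M[IL-4] (1.39, FDR 0.0451) overlapped Veh between libraries and had FDR 0.0668 with the replicate block within each polarization. It was lost without Veh M[IL-4] replicate 1 (1.57), 2 (1.63) or 3 (1.04) and without HC3 M[IL-4] replicate 1 (0.89) or 2 (1.43). HC3 lay below RSM by -2.16 in M[0] (SE 0.277, FDR 2.43e-05) and -2.44 in M[IL-4] (SE 0.336, FDR 5.15e-05). Of 6 megakaryocyte and platelet markers, 2 had 0 counts in every library, *Gp1bb* among them, and the list summed to 1.54 to 1.92 CPM in RSM M[0] and 2.47 to 2.82 in Veh M[0], and to 1.27 to 1.97 and 2.21 to 2.44 in the same groups with IL-4. Most of it was *Gp1ba*, and *Itga2b* had means of 0.353 CPM in Veh M[IL-4] and 0.511 in RSM M[IL-4]. The part of such cells in the *Pf4* and *Ppbp* values was not tested.

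**Figure D3:**
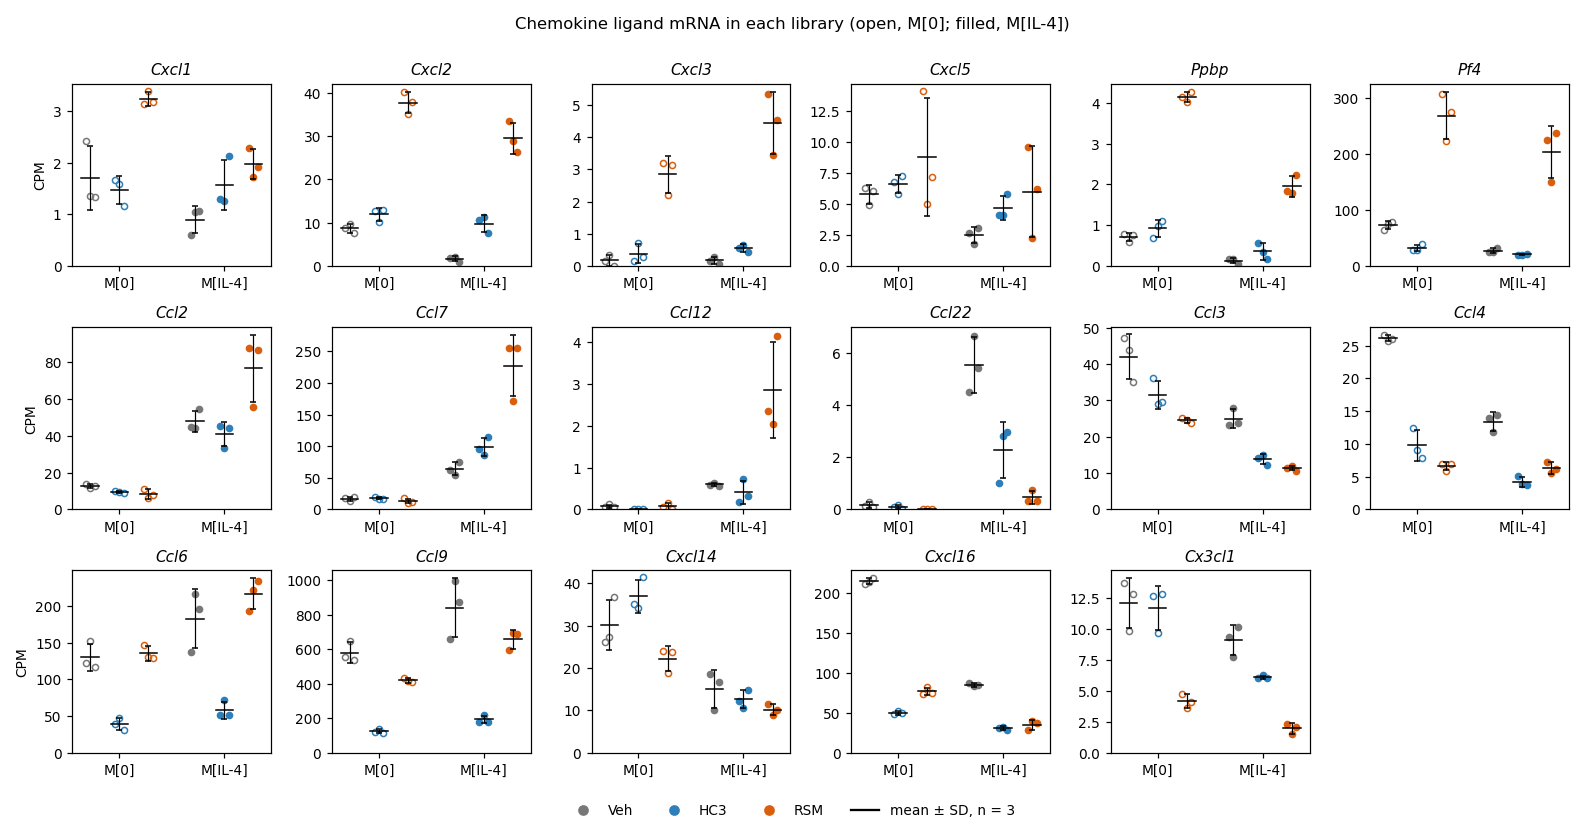
CPM (vertical axis, from 0) of 17 ligands in each library of the 6 groups (horizontal axis, Veh, HC3 and RSM in M[0], open, and in M[IL-4], filled), with the mean and SD of 3 libraries. Cxcl2, Cxcl3, Ppbp and Pf4 are highest with RSM in both polarizations, Ccl6 and Ccl9 are lowest with HC3, and Ccl7 and Ccl12 are highest in RSM M[IL-4].

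The monocyte attractants *Ccl2*, *Ccl7*, *Ccl12* and *Ccl8* lie in this order, with *Ccl11* after *Ccl7* and *Ccl1* last, on chromosome 11 (bases 82035571 to 82305690 of GRCm38), and all 4 rose with IL-4 in Veh cells. *Ccl7* was at 17.7, 13.4 and 18.9 CPM in Veh M[0], at 19.4, 17 and 16.3 in HC3 M[0] and at 17.4, 10.6 and 11.2 in RSM M[0]. After IL-4 it was at 62.7, 55 and 75.6 CPM with Veh, at 95.2, 86.4 and 115 with HC3 and at 255, 171 and 255 with RSM. The 3 treatments overlapped in M[0] and were ordered Veh, HC3 and RSM without overlap in M[IL-4]. IL-4 raised it 3.86-fold with Veh (log2 fold change 1.95, SE 0.191, FDR 2.63e-07), 5.63-fold with HC3 (2.49, SE 0.19, FDR 2.35e-08) and 17.3-fold with RSM (4.11, SE 0.201, FDR 2.71e-11). RSM raised it 3.52-fold in M[IL-4] (1.82, SE 0.176, FDR 1.17e-07), with 0.62 for HC3 (FDR 0.00817), and HC3 was 2.29-fold below RSM (-1.20, SE 0.171, FDR 8.12e-05).

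*Ccl2*, the main ligand of *Ccr2*, was at 13.9, 11.7 and 12.7 CPM in Veh M[0], at 9.74, 9.63 and 8.84 in HC3 M[0] and at 11.3, 6.07 and 8.06 in RSM M[0]. The levels in M[IL-4] were 44.7, 44.1 and 54.7 CPM with Veh, 45.1, 33.2 and 44.3 with HC3 and 87.5, 55.7 and 86.6 with RSM. Both inhibitors lay below Veh in M[0], and RSM lay above both others in M[IL-4]. IL-4 raised *Ccl2* 3.74-fold with Veh (log2 fold change 1.90, SE 0.189, FDR 3.05e-07), 4.34-fold with HC3 (2.12, SE 0.194, FDR 2.65e-07) and 9.04-fold with RSM (3.18, SE 0.197, FDR 8.03e-10). No inhibitor comparison reached the fold threshold, with -0.60 for RSM in M[0] (FDR 0.027) and 0.68 in M[IL-4] (FDR 0.00393). HC3 against RSM in M[IL-4] was -0.91 (FDR 0.00139), and -1.08 without RSM M[IL-4] replicate 2. In every group but HC3 M[0], *Ccl2* and *Ccl7* were lowest in the library numbered 2. That library was also the lowest of each group for the stromal markers *Col1a1*, *Col1a2* and *Col3a1*. The part of stromal cells in the *Ccl2* and *Ccl7* values was not tested.

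*Ccl12*, another *Ccr2* ligand, was at 0.0553, 0.117 and 0.0538 CPM in Veh M[0], at 0 in all 3 HC3 M[0] libraries and at 0.0533, 0.157 and 0 in RSM M[0]. In M[IL-4] it was at 0.592, 0.639 and 0.56 CPM with Veh, at 0.17, 0.719 and 0.329 with HC3 and at 2.34, 2.05 and 4.15 with RSM. It rose with IL-4 under each treatment, and RSM M[IL-4] was above the other groups. Only M[IL-4] libraries held 10 counts of *Ccl12*, so the filter favoured these rises. The IL-4 log2 fold change was 2.89 with Veh (SE 0.728, FDR 0.00586) and 5.22 with RSM (SE 0.612, FDR 9.05e-06), or 6.44 without RSM M[0] replicate 2. With HC3 it was at least 7.77-fold, 22 counts against 0, taking 3 counts over the group as the floor (FDR 0.00292). RSM raised it 4.73-fold in M[IL-4] (2.24, SE 0.446, FDR 0.000678), and HC3 lay below RSM there (-2.79, SE 0.47, FDR 0.000613), -3.47 without HC3 M[IL-4] replicate 2. *Ccl8*, which attracts monocytes and type 2 T cells, had means of 0.654 ± 0.282, 0.405 ± 0.252 and 0.21 ± 0.0538 CPM in M[0] with Veh, HC3 and RSM, and 1.58 ± 0.433, 0.889 ± 0.24 and 1.87 ± 0.417 in M[IL-4] (SD, n = 3). IL-4 raised it with RSM (3.12, SE 0.45, FDR 4.91e-05). With Veh the call (1.26, FDR 0.0186) was lost without Veh M[0] replicate 3 (0.98) or Veh M[IL-4] replicate 2 (1.12) or 3 (1.15). With HC3 the value was 1.13 (FDR 0.0964), 1.21 with the replicate block within each polarization (FDR 0.04) and 1.75 (FDR 0.0259) without HC3 M[0] replicate 1. The fall of *Ccl8* with RSM in M[0] (-1.61, FDR 0.0163) was lost without Veh M[0] replicate 1 (-1.25) or RSM M[0] replicate 3 (-1.44). HC3 against RSM in M[IL-4] was -1.07 (FDR 0.0635), and -1.08 with that block (FDR 0.0231). HC3 against Veh was -0.69 in M[0] (-1.31, FDR 0.0486, without HC3 M[0] replicate 1) and -0.82 in M[IL-4] (-1.03, FDR 0.0492, without Veh M[IL-4] replicate 1).

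Of 6 ligands associated with type 2 immunity, *Ccl22*, *Ccl17* and *Ccl24* were expressed, and each had a higher mean with IL-4 than without it in Veh cells and its lowest mean in M[IL-4] with RSM. *Ccl22*, which attracts T cells through *Ccr4*, was at 0.111, 0.294 and 0.108 CPM in Veh M[0], at 0.107, 0.154 and 0 in HC3 M[0] and at 0 in all 3 RSM M[0] libraries. Its M[IL-4] levels were 4.52, 6.68 and 5.43 CPM with Veh, 1.02, 2.82 and 2.96 with HC3 and 0.306, 0.754 and 0.319 with RSM. The 3 treatments were ordered Veh, HC3 and RSM without overlap in M[IL-4]. Only M[IL-4] libraries held 10 counts of *Ccl22*, so the filter favoured its rise with IL-4. IL-4 raised it 31.7-fold with Veh (log2 fold change 4.99, SE 0.536, FDR 1.97e-06), or 5.58 without Veh M[0] replicate 2. With HC3 the rise was 4.60 (SE 0.626, FDR 6.04e-05), or 5.25 without HC3 M[0] replicate 2, and with RSM at least 8.72-fold (26 counts against 0, FDR 0.00329). In M[IL-4] RSM lowered it 12-fold (-3.58, SE 0.455, FDR 7.53e-06), and the fall with HC3 (-1.28, SE 0.377, FDR 0.0122) was lost without HC3 M[IL-4] replicate 1 (-0.94, FDR 0.0551). HC3 left 4.91-fold more than RSM (2.29, SE 0.475, FDR 0.00336). The fall with RSM in M[0] was at least 3.2-fold (0 counts against 9, FDR 0.0267), and was lost without any 1 of the RSM M[0] libraries (FDR 0.0584 to 0.0594) or without Veh M[0] replicate 2 (FDR 0.0925).

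*Ccl17*, the other *Ccr4* ligand, and *Ccl24*, an eotaxin that binds *Ccr3*, passed the count filter only through Veh M[IL-4], so their place among the expressed genes rests on that group. *Ccl17* had 34 counts over the Veh M[IL-4] libraries against 2 in Veh M[0] and 2 in RSM M[IL-4]. With HC3 it had 21 in M[IL-4] against 1 in M[0] (ratio 22.3, 95% counting interval 3.58 to 920). In RSM cells 2 counts with IL-4 stood against 1 without it. The call of IL-4 with HC3 (FDR 0.016) was lost without HC3 M[0] replicate 2 (FDR 0.0574) or 3 (FDR 0.0669) and without HC3 M[IL-4] replicate 2 (FDR 0.0776). That of HC3 against RSM in M[IL-4] (ratio 11.1, 2.71 to 97.5, FDR 0.0321) was lost without RSM M[IL-4] replicate 1 (FDR 0.104) or 2 (FDR 0.11) and without HC3 M[IL-4] replicate 2 (FDR 0.121) or 3 (FDR 0.0679), and had FDR 0.0775 in a fit of only these groups. *Ccl24* had means of 1.34 ± 0.832 CPM in Veh M[IL-4], 0.277 ± 0.336 in HC3 M[IL-4] and 0.0716 ± 0.0823 in RSM M[IL-4], and at most 0.104 ± 0.0518 in M[0] (SD, n = 3). Of the Veh M[0] libraries only replicate 3 had counts, and the HC3 and Veh libraries overlapped in M[IL-4]. With RSM the IL-4 log2 fold change of *Ccl24* was -0.53 (FDR 0.859). IL-4 with HC3 gave 15 counts against 1 (ratio 15.9, 2.45 to 669), with FDR 0.106 and 0.0235 with the replicate block within each polarization.

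The *Ccl17* and *Ccl22* promoters are printed because both are in 1 group on chromosome 8 (bases 94745590 to 94812036 of GRCm38, with *Cx3cl1* between them) and both were higher with IL-4 in Veh cells. Windows and strand are as above, and capitals mark TTC and GAA with any 4 bases between them, the spacing that STAT6 prefers, searched on both strands.
Ccl17 (chr8:94810253-94810452): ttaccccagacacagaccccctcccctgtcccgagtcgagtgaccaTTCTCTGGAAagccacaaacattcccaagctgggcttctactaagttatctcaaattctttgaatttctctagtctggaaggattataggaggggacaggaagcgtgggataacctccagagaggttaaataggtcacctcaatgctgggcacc
Ccl22 (chr8:94745434-94745589): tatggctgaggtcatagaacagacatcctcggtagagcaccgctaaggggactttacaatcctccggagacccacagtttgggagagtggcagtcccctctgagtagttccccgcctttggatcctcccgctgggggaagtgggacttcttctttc
*Ccl17* holds 1 copy, starting 154 bases before the RefSeq start, and is the only member whose window holds it, against 5.85% of the 32851 windows. That the letters are not in the window of *Ccl22* says nothing of sites elsewhere.

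The inflammatory CC ligand genes *Ccl5*, *Ccl9*, *Ccl6*, *Ccl3* and *Ccl4* lie in this order on chromosome 11 (bases 83525778 to 83664683). *Ccl9*, the ligand with the highest level per kb in Veh M[0] and a ligand of *Ccr1*, was at 554, 650 and 538 CPM in Veh M[0], at 123, 135 and 113 in HC3 M[0] and at 434, 419 and 408 in RSM M[0]. After IL-4 it was at 659, 996 and 872 CPM with Veh, at 181, 219 and 179 with HC3 and at 595, 695 and 687 with RSM. HC3 libraries lay far below both others. The fall with HC3 was 4.68-fold in M[0] (log2 fold change -2.23, SE 0.126, FDR 6.86e-11) and 4.36-fold in M[IL-4] (-2.13, SE 0.125, FDR 1.83e-10), while RSM gave -0.47 (FDR 0.00421) and -0.35 (FDR 0.0251). HC3 was below RSM by -1.76 in M[0] (SE 0.124, FDR 1.93e-08) and -1.77 in M[IL-4] (SE 0.124, FDR 1.34e-08). The neighbouring *Ccl6*, also a *Ccr1* ligand, was at 122, 152 and 117 CPM in Veh M[0], at 39.4, 46.9 and 31.6 in HC3 M[0] and at 147, 131 and 129 in RSM M[0]. The levels in M[IL-4] were 138, 216 and 196 CPM with Veh, 51.2, 71.5 and 51.5 with HC3 and 193, 222 and 235 with RSM. HC3 lowered it 3.31-fold in M[0] (-1.73, SE 0.17, FDR 1.31e-07) and 3.16-fold in M[IL-4] (-1.66, SE 0.167, FDR 2.26e-07). RSM overlapped Veh, with 0.06 in M[0] (95% interval -0.28 to 0.40, FDR 0.795) and 0.24 in M[IL-4] (-0.09 to 0.58, FDR 0.255), and HC3 lay below RSM by -1.79 (FDR 6.49e-07) and -1.90 (FDR 2.47e-07). IL-4 moved neither gene past the fold threshold under any treatment, with values from 0.50 to 0.68.

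*Ccl4*, a macrophage inflammatory protein, was at 26.7, 25.7 and 26.1 CPM in Veh M[0], at 12.5, 9.12 and 7.89 in HC3 M[0] and at 6.88, 5.91 and 6.98 in RSM M[0]. In M[IL-4] it was at 13.9, 11.8 and 14.4 CPM with Veh, at 5.09, 3.93 and 3.67 with HC3 and at 7.28, 5.49 and 6.23 with RSM. RSM was the lowest group in M[0] and HC3 the lowest in M[IL-4], without overlap. HC3 lowered it 2.66-fold in M[0] (log2 fold change -1.41, SE 0.152, FDR 4.22e-07) and 3.17-fold in M[IL-4] (-1.66, SE 0.168, FDR 2.35e-07). RSM lowered it 3.96-fold in M[0] (-1.99, SE 0.158, FDR 7.62e-09) and 2.11-fold in M[IL-4] (-1.08, SE 0.16, FDR 2.43e-05), the last at -0.99 without RSM M[IL-4] replicate 2. HC3 against RSM was 0.57 in M[0] (FDR 0.0222) and -0.58 in M[IL-4] (FDR 0.0323). IL-4 lowered *Ccl4* with HC3 (-1.21, SE 0.17, FDR 4.53e-05), with -0.96 for Veh (FDR 6.37e-05), which was -1.02 without Veh M[IL-4] replicate 3, and -0.06 for RSM (FDR 0.883).

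*Ccl3*, which binds *Ccr1*, was at 47.2, 44 and 35.1 CPM in Veh M[0], at 36.1, 29 and 29.7 in HC3 M[0] and at 25.1, 24.7 and 23.8 in RSM M[0]. Its M[IL-4] levels were 23.3, 28 and 23.7 CPM with Veh, 14.2, 14.9 and 12.3 with HC3 and 11.5, 11.9 and 10.7 with RSM. Means were highest with Veh and lowest with RSM in both states, and HC3 overlapped Veh in M[0]. The fall was called with RSM in M[IL-4] (log2 fold change -1.13, SE 0.12, FDR 4.06e-07), and the other inhibitor values were -0.41, -0.78 and -0.86 with FDR from 1.18e-05 to 0.0055. IL-4 lowered *Ccl3* with HC3 (-1.20, SE 0.118, FDR 7.23e-07) and RSM (-1.10, SE 0.12, FDR 1.65e-06), with -0.75 for Veh (FDR 4.56e-05). *Ccl5*, which attracts T cells, had means of 1.31 ± 0.852 CPM in Veh M[0] and 0.401 ± 0.0606 in RSM M[0], and from 0.743 ± 0.388 to 1.28 ± 0.278 in the other groups (SD, n = 3). Its fall with RSM in M[0] (-1.68, SE 0.461, FDR 0.00663) rested on Veh M[0] replicate 2, without which it was -1.02 (FDR 0.0824). HC3 against RSM in M[0] was 1.27 (FDR 0.085), and 1.30 with the replicate block within each polarization (FDR 0.0257).

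*Cxcl16*, made as a transmembrane ligand of *Cxcr6* that also binds oxidised lipid, was at 212, 214 and 219 CPM in Veh M[0], at 48.3, 52.7 and 49.5 in HC3 M[0] and at 74.2, 82.2 and 75.5 in RSM M[0]. After IL-4 it was at 87.7, 83.4 and 84.6 CPM with Veh, at 31, 32.7 and 28 with HC3 and at 28.1, 40.2 and 37.5 with RSM. Both inhibitors and IL-4 each left it lower than in Veh M[0], with SDs of at most 6.34 CPM. HC3 lowered it 4.29-fold in M[0] (log2 fold change -2.10, SE 0.0939, FDR 2.52e-12) and 2.79-fold in M[IL-4] (-1.48, SE 0.0958, FDR 7.08e-10), and RSM 2.78-fold (-1.48, SE 0.0914, FDR 2.57e-10) and 2.42-fold (-1.27, SE 0.0946, FDR 3.74e-09). IL-4 lowered it 2.52-fold with Veh (-1.34, SE 0.0911, FDR 2.09e-09) and 2.19-fold with RSM (-1.13, SE 0.0945, FDR 4.89e-08), the last just short of the threshold without RSM M[IL-4] replicate 1, and gave -0.72 with HC3 (FDR 2.92e-05). Of its exonic bases, 18.3% overlap *Zmynd15* on the opposite strand, and reads there cannot be told apart without a stated strand setting.

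*Cx3cl1* (fractalkine) was at 13.7, 9.87 and 12.8 CPM in Veh M[0], at 12.7, 9.68 and 12.8 in HC3 M[0] and at 4.75, 3.66 and 4.11 in RSM M[0]. The levels in M[IL-4] were 9.37, 7.78 and 10.2 CPM with Veh, 6.06, 6.25 and 6.02 with HC3 and 2.34, 1.51 and 2.08 with RSM. RSM lowered it 2.91-fold in M[0] (log2 fold change -1.54, SE 0.172, FDR 7.03e-07) and 4.59-fold in M[IL-4] (-2.20, SE 0.189, FDR 2.52e-08). HC3 overlapped Veh in M[0] (-0.05, 95% interval -0.39 to 0.28, FDR 0.82) and gave -0.58 in M[IL-4] (FDR 0.0105), and it lay above RSM by 1.49 (SE 0.171, FDR 6.84e-06) and 1.62 (SE 0.193, FDR 9.94e-06). IL-4 lowered it with RSM (-1.07, FDR 0.000648), -0.98 without RSM M[0] replicate 1 and -0.92 without RSM M[IL-4] replicate 2. With HC3 the value was -0.94 (FDR 0.000568), or -1.06 without HC3 M[0] replicate 2. *Cx3cl1* too was lowest in the library numbered 2 in every group but HC3 M[IL-4].

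*Cxcl14*, a ligand of epithelium and stroma, was at 26.2, 27.3 and 36.8 CPM in Veh M[0], at 35, 34.2 and 41.4 in HC3 M[0] and at 24.1, 18.8 and 23.7 in RSM M[0]. In M[IL-4] it was at 18.6, 9.99 and 16.8 CPM with Veh, at 12.3, 10.6 and 14.9 with HC3 and at 11.5, 8.88 and 10.1 with RSM. IL-4 lowered it without overlap, 2.92-fold with HC3 (log2 fold change -1.55, SE 0.191, FDR 1.08e-05) and 2.18-fold with RSM (-1.13, SE 0.195, FDR 0.000344). With Veh the value was -0.99 (FDR 0.000509), and -1.01 with the replicate block within each polarization (FDR 4.21e-08), -1.08 without Veh M[0] replicate 1, -1.06 without replicate 2, -1.17 without Veh M[IL-4] replicate 1 and -1.07 without replicate 3. *Cxcl12*, the stromal ligand of *Cxcr4*, ranged from 21.2 to 60.2 CPM in Veh M[0], 45.7 to 80.9 in HC3 M[0] and 16.3 to 28.6 in RSM M[0], and from 11.6 to 32.2, 26 to 48.4 and 10.6 to 22.4 in M[IL-4]. The library numbered 2 was lowest in each of the 6 groups. HC3 lay above RSM in M[0] (1.55, SE 0.391, FDR 0.0113), a call lost without HC3 M[0] replicate 1 (1.37, FDR 0.0516) or RSM M[0] replicate 2 (1.36, FDR 0.0691). In M[IL-4] the difference was 1.14 (FDR 0.0686), with FDR 2.74e-08 under the replicate block within each polarization (1.16) and 1.38 (FDR 0.0366) without HC3 M[IL-4] replicate 2. RSM against Veh in M[0] was -0.98 (FDR 0.0543), or -1.31 without Veh M[0] replicate 2, and without that library IL-4 with Veh gave -1.15 (FDR 0.0273) in place of -0.82 (FDR 0.121). The stromal marker *Col1a1* was at 276, 202 and 333 CPM in Veh M[0], lowest in the same library as *Cxcl12*, and the part of such cells in the *Cxcl12* and *Cxcl14* values was not tested.

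*Cxcl10*, an interferon-induced *Cxcr3* ligand, passed the filter only through Veh M[0], at 1.18 ± 0.259 CPM, against 0.331 ± 0.126 in HC3 M[0], 0.525 ± 0.149 in RSM M[0] and 0.0947 ± 0.086 to 0.298 ± 0.163 in M[IL-4] (SD, n = 3). Its level was highest in the group that admitted it. *Ccl27a*, a skin-homing ligand of *Ccr10*, fell in M[0] from 1.91 ± 0.275 CPM to 0.822 ± 0.0763 with HC3 (-1.21, SE 0.299, FDR 0.0028) and 0.817 ± 0.204 with RSM (-1.22, SE 0.299, FDR 0.00289), with -0.80 (FDR 0.0603) and -0.69 (FDR 0.098) in M[IL-4], that of HC3 at -1.19 (FDR 0.0146) without HC3 M[IL-4] replicate 1. A transcript of the gene is 99.3% identical over its full length to *Ccl27b* and to a predicted copy, so its counts are uncertain. The alignment covers 405 bases, where the gene has 2377 exonic bases. *Ccl25*, a gut-homing ligand of *Ccr9*, stayed between 4.7 ± 1.06 and 5.75 ± 0.847 CPM, with the largest inhibitor value at 0.16 (95% interval -0.27 to 0.59), and was called nowhere.

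The other 25 members were under the count filter. *Ccl1*, *Ccl19*, *Ccl21a*, *Ccl21b*, *Ccl26*, *Ccl27b*, *Ccr6* and *Ccr8* had 0 counts in all 18 libraries. *Ackr1*, *Ackr2*, *Ccl20*, *Ccr4*, *Cxcl13*, *Cxcl17* and *Cxcr1* had at most 1 count in any library, and *Cxcl15* at most 3. The largest counts were 5 for *Cxcl9*, 6 for *Ccr9* and *Cxcr5*, 7 for *Ccr7* and *Cxcr6*, 9 for *Xcr1*, 10 for *Ccl28* and 11 for *Ccl11* and *Ackr4*. So *Ccr4*, the receptor of *Ccl17* and *Ccl22*, and *Ccr7*, the receptor that guides cells to lymph nodes, were at or below the level that could be tested at this depth.

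Expressed receptors and some of their expressed ligands were measured side by side. With RSM in M[IL-4], *Ccr2* was at 0.863 ± 0.41 CPM against 25.1 ± 4.95 with Veh, where its ligands *Ccl2* (76.6 ± 18.1), *Ccl7* (227 ± 48.3) and *Ccl12* (2.85 ± 1.14) had their highest means of the 6 groups. With RSM, *Cx3cr1* and its ligand *Cx3cl1* were both low in M[0], at 0.661 ± 0.365 and 4.17 ± 0.547 CPM, against 30.8 ± 1.13 and 12.1 ± 2.01 with Veh (SD, n = 3).

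**Figure D4:**
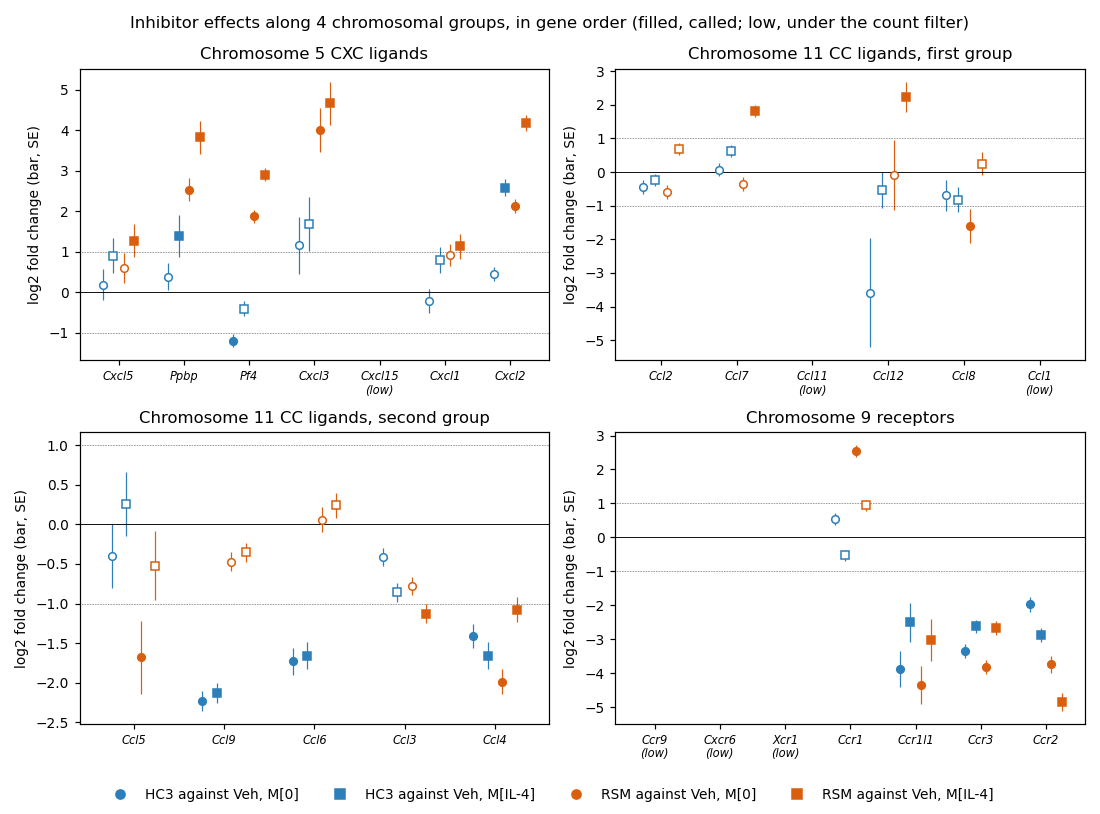
Log2 fold change against Veh (vertical axis, bars, SE; dotted lines, the fold threshold) of genes in 4 chromosomal groups in their order along the chromosome (horizontal axis), for HC3 (blue) and RSM (orange) in M[0] (circles) and M[IL-4] (squares), filled where called. Some neighbours differ. On chromosome 5 Pf4 fell with HC3 in M[0], where Cxcl3 and Ppbp were not called, while Pf4, Cxcl3 and Ppbp all rose with RSM. On chromosome 11 Ccl9 and Ccl6 fell with HC3 beside Ccl3, which was not called with HC3. On chromosome 9 Ccr1 rose with RSM in M[0] beside Ccr1l1, Ccr3 and Ccr2, which fell.

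HC3 and RSM were compared directly for all 37 members. In M[0] 14 differed, 5 higher with HC3 and 9 higher with RSM, where 1.61% and 1.44% of all genes, 3.04% together, were called. In M[IL-4] 13 differed, 4 and 9 (1.21% and 1.59% of all genes). Higher with RSM in both were *Ccl6*, *Ccl9*, *Cxcl2*, *Cxcl3*, *Pf4*, *Ppbp* and *Ccr1*, and higher with HC3 in both were *Cx3cl1* and *Ccr2*, with the values given above. *Cxcr3* was higher with HC3 in M[0] (log2 difference 1.37, SE 0.255, FDR 0.00103), and in M[IL-4] the difference was 0.32 (95% interval -0.35 to 1.00, FDR 0.605). For *Cxcl16* the difference was -0.62 in M[0] (FDR 0.000114) and -0.21 in M[IL-4] (95% interval -0.41 to 0.00, FDR 0.2), and for *Cxcl5* -0.41 (-1.19 to 0.37, FDR 0.542) and -0.37 (-1.19 to 0.45, FDR 0.631).

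Whether an inhibitor's effect differed between M[IL-4] and M[0] was tested as an interaction, the log2 fold change in M[IL-4] minus that in M[0]. For HC3 2 of 37 members were called, 1 higher and 1 lower, where 0.481% and 0.761% of all genes were. For RSM 7 were called, 6 higher and 1 lower (1.22% and 0.921%). The 2 of HC3 were *Cxcl2* (2.12, SE 0.279, FDR 0.000144) and *Ccr1* (-1.07, SE 0.238, FDR 0.00995). The *Ccr1* call was short of the fold threshold without Veh M[0] replicate 3 (-0.96), HC3 M[0] replicate 2 (-0.92), Veh M[IL-4] replicate 2 (-0.95) or HC3 M[IL-4] replicate 3 (-0.99). For RSM the largest were *Ccl7* (2.17, SE 0.269, FDR 3.59e-05), *Cxcl2* (2.06, SE 0.269, FDR 5.69e-05) and *Ccr1* (-1.59, SE 0.229, FDR 0.000146), with *Ccl2* at 1.27 (SE 0.269, FDR 0.00466). The RSM call of *Ccr3* (1.15, FDR 0.0142) was short of the threshold without RSM M[0] replicate 2 (0.92) or Veh M[IL-4] replicate 1 (0.99). That of *Cxcr3* (1.41, FDR 0.0277) was lost without Veh M[0] replicate 2 (1.31), RSM M[0] replicate 1 (1.30) or 3 (1.32), Veh M[IL-4] replicate 1 (1.33) or 2 (1.31) or RSM M[IL-4] replicate 1 (1.41) or 3 (1.21), with FDR 0.0551 to 0.115. That of *Pf4* (1.02, FDR 0.00616) was short of the threshold without Veh M[0] replicate 2 (1.00) or 3 (0.97), RSM M[0] replicate 2 (0.92), Veh M[IL-4] replicate 1 (0.97) or 2 (0.94) or RSM M[IL-4] replicate 1 (0.96) or 3 (0.90). With the replicate block within each polarization the RSM count was 10, adding *Ccl24*, *Ccl8* (1.85, FDR 0.0337, against 0.0682) and *Ccr2* (-1.11, FDR 0.0402, against 0.0935). The HC3 count was 3, adding *Cxcl10*. *Ccl24* and *Cxcl10* were each admitted through 1 group that these interactions hold. Their calls are therefore not independent of the filter, and no FDR is given.

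**Figure D5:**
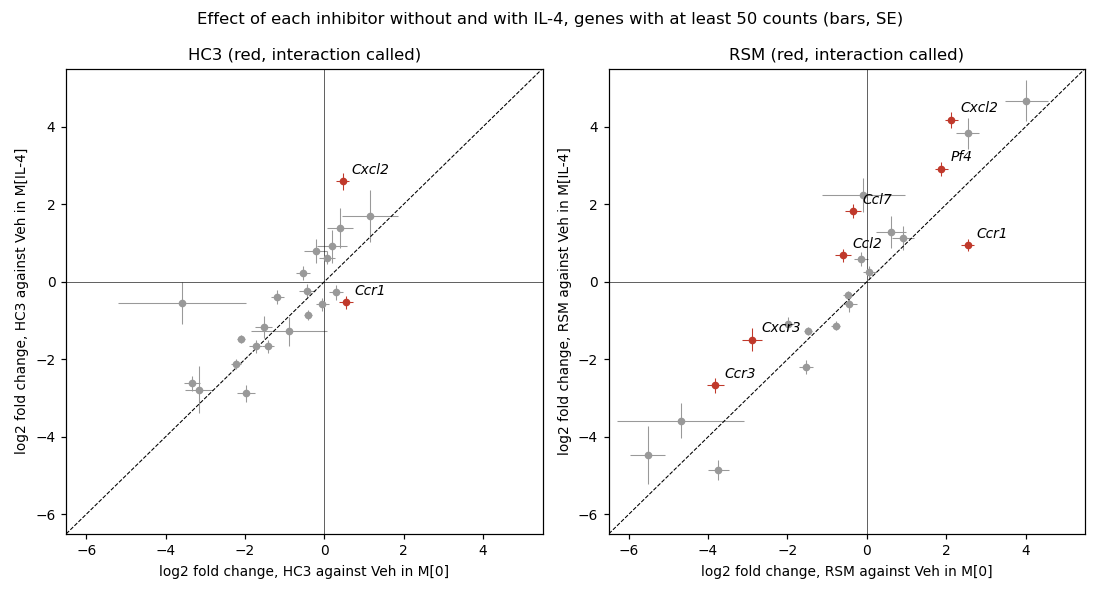
Log2 fold change against Veh in M[IL-4] (vertical axis) and in M[0] (horizontal axis) for HC3 (left) and RSM (right), for 23 members called with 50 or more counts on average in their highest group, with SE bars and a dashed line of equality. Genes with a called interaction are red and named, and Cxcl2 lies above the line in both panels and Ccr1 below it.

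Genes that act with the receptors were taken from a list. Of 52 listed genes of Gi signalling, receptor kinases, arrestins and RGS proteins, migration and ligand processing, 50 were tested. HC3 raised 1 and lowered 7 in M[0] (16% called, against 12.0% of all genes) and lowered 3 in M[IL-4] (6% against 10.3%). RSM lowered 7 in M[0] (14% against 11.6%) and 5 in M[IL-4] (10%, where 5.05% of all genes were called higher and 6.00% lower). With the inhibitors *Rgs16* was the only gene called higher, and these small counts were not tested against the shares of all genes. The share of all genes called lower was 6.11% for HC3 without IL-4, 5.53% for HC3 with it and 6.51% for RSM without it. The median log2 fold change of the 50 genes was -0.43 for HC3 without IL-4 and -0.26 with it. For RSM the medians were -0.29 without IL-4 and -0.24 with it. *Rgs2*, which shortens G protein signals, fell with both inhibitors, from 188 ± 13.2 CPM in Veh M[0] to 83.1 ± 6.55 with HC3 (log2 fold change -1.18, FDR 6.51e-07) and 59.6 ± 6.4 with RSM (-1.66, FDR 9.48e-09). The M[IL-4] level fell from 186 ± 27.9 to 57.9 ± 7.34 (-1.69, FDR 1.02e-08) and 36.2 ± 7.92 (-2.36, FDR 1.69e-10). *Prex1*, an activator of Rac in chemotaxis, fell in M[0] from 426 ± 12.5 CPM to 155 ± 9.69 with HC3 (-1.46, FDR 1.83e-11) and 206 ± 16.5 with RSM (-1.05, FDR 1.7e-09). *Arrb2* (-1.28, FDR 1.35e-11) and *Pik3cg* (-1.22, FDR 2.45e-11) fell with HC3 in M[0], where *Rgs16* rose (1.44, FDR 2.97e-06). Of the proteases that trim chemokines, *Mmp12* rose with IL-4 from 629 ± 76.2 to 2390 ± 461 CPM in Veh cells (1.93, FDR 1.15e-08). It fell with RSM to 182 ± 5.46 CPM in M[0] (-1.79, FDR 1.48e-08) and to 437 ± 55.2 in M[IL-4] (-2.46, FDR 3.35e-10), and HC3 left 697 ± 116 and 1680 ± 287 CPM. *Mmp9* fell with RSM from 10.2 ± 1.63 to 1.94 ± 0.391 CPM in M[0] (-2.39, FDR 1.49e-08) and from 6.2 ± 1.21 to 1.35 ± 0.25 in M[IL-4] (-2.19, FDR 1.3e-07; SD, n = 3).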

How the data were processed

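Poly-A mRNA of 18 BMDM libraries was sequenced in read pairs. The authors trimmed the reads with fastp, aligned them to GRCm38 with STAR in local mode, kept pairs of high mapping quality, marked duplicates with Picard without removing them and deposited raw counts of exonic reads per gene from Subread featureCounts. Versions of these tools, the annotation release and the strand setting are not given in the sources used here. Of 55385 gene identifiers, 55144 matched a symbol of the GRCm38 annotation, and no column of per-sample values was unused (0).

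Groups followed the labels (6 of 3 libraries). The 14979 genes for which 2 or more of the 18 libraries held 10 counts or more were fitted in R 4.3.3 with edgeR 4.0.16 (limma 3.58.1), with TMM scaling, 1 coefficient per group, no replicate term and the quasi-likelihood test, for 11 comparisons. P-values measure the spread between these libraries. Standard errors were approximated as the log2 fold change over the square root of F, and intervals used the t quantile on the total degrees of freedom. Counting intervals and floors (3 counts) cover counting error only. On simulated counts for HC3 against Veh in M[0], 200 of 200 changed genes among 14979 were recovered with 3 false calls. The changed genes averaged at least 50 counts, their log2 fold change was 2 or 3 in size, and libraries were simulated without pairing. Recovery of smaller changes or of genes with fewer counts was not tested.

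Deviations from group means, over 10974 genes, correlated above 0.1 in 18 of 18 pairs of same-numbered libraries within a polarization (0.27 to 0.676), in 19 of 27 across polarizations (-0.151 to 0.585) and in 4 of 36 pairs of other numbers within a polarization (-0.627 to 0.28). Of pairs of other numbers across polarizations, 17 of 54 did so (-0.533 to 0.431). The numbers therefore pair libraries within a polarization, as read from the data and not from the labels, and fits with that block are given where they change a call. Replicates differed beyond counting noise in every group.

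Members, roles, the pathway genes and the marker lists (macrophage, dendritic, neutrophil, platelet, stromal, endothelial, B, T and NK, and eosinophil, basophil and mast cells) were chosen with earlier results of these data known. Values per library are given for 23 of the 24 members called in an inhibitor or IL-4 comparison that averaged 50 counts or more in their highest group, and other expressed members by means, ranges or the libraries a call rests on. The remaining member enters counts and sums and is not reported here. Alternatives were both replicate blocks, a fit of only the groups compared, DESeq2 1.42.0, no count filter (29054 genes), edgeR's filterByExpr (14466), scaling by library size, and leaving out libraries. Promoter windows (RefSeq, GRCm38.p6) were matched by symbol for 48 of 62 members and 28 of the 37 expressed. Near-identical transcripts were sought with blastn 2.17.0. Tables and plots used Python 3.11.15, pandas 2.3.3, SciPy 1.17.1 and matplotlib 3.10.9.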

Additional observations from a re-analysis of the deposited data

Results flagged for a closer look

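The effect of an inhibitor differed between M[IL-4] and M[0], at an FDR under 0.05 of edgeR's interaction test, for the members below, each given as the log2 fold change against Veh in M[IL-4] minus that in M[0]. For HC3 these were *Cxcl2* (2.12, FDR 0.000144), *Cxcl16* (0.62, FDR 0.0072) and *Ccr1* (-1.07, FDR 0.00995). *Cxcl16* was thus lowered less by HC3 in M[IL-4] than in M[0], by a difference short of the fold threshold. For RSM the ligands were *Ccl7* (2.17, FDR 3.59e-05), *Cxcl2* (2.06, FDR 5.69e-05), *Ccl2* (1.27, FDR 0.00466), *Pf4* (1.02, FDR 0.00616) and *Ccl4* (0.91, FDR 0.0136). The receptors were *Ccr1* (-1.59, FDR 0.000146), *Ccr3* (1.15, FDR 0.0142) and *Cxcr3* (1.41, FDR 0.0277). *Ccl4* was short of the fold threshold and was past it without RSM M[IL-4] replicate 2 (1.01). The calls of *Ccr1* with HC3 and of *Ccr3*, *Cxcr3* and *Pf4* with RSM rested on single libraries, as given with their values above.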

How the results depend on the processing

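Called members, in each comparison, numbered 13, 18, 16 and 22 for HC3 and RSM against Veh in M[0] and then in M[IL-4], 20, 11 and 11 for IL-4 with Veh, HC3 and RSM, 2 and 7 for the HC3 and RSM interactions, and 14 and 13 for HC3 against RSM in M[0] and M[IL-4]. In the same order they numbered 13, 18, 16, 22, 21, 12, 11, 3, 8, 15 and 15 with the replicate block, and the block within each polarization gave 13 for IL-4 with HC3 and 10 for the RSM interaction. All these counts include *Ccl17*, *Ccl24*, *Cxcr2* and *Cxcl10*, which passed the count filter through 1 group. They also include *Ccr1l1*, *Ackr3*, *Cxcl3*, *Ccl12* and *Ccl22*, which the filter favoured as given above. The calls this block changed stand beside the values of their genes. DESeq2, other count filters, library size scaling and a fit of only the groups compared each left every count within 1.5 times. Leaving out 1 library or replicate number gave ranges of 12 to 14, 14 to 18, 10 to 16, 20 to 23, 17 to 23, 9 to 12, 9 to 11, 1 to 2, 3 to 8, 12 to 14 and 10 to 14. Of these, 10 for HC3 in M[IL-4] came without replicate 3, 1 for the HC3 interaction without HC3 M[0] replicate 2, Veh M[0] replicate 3, Veh M[IL-4] replicate 2, replicate 1 or replicate 3, and for the RSM interaction 4 without Veh M[IL-4] replicate 1 or replicate 1 and 3 without replicate 3. These fits hold fewer samples, and any other cause was not tested. Over 147 called pairs of a member and a comparison, 2257 of 2401 alternative values kept the call, 144 lost it and 0 changed direction. Of the 147, 142 were called under every alternative that kept all libraries and 111 under every alternative. Members of a few counts per library, such as *Ccl17*, *Ccl24*, *Cxcr2* and *Cxcl10*, were limited by depth.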
